A study of Mus musculus with 5 samples.

Results

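The cytosolic ribosomal protein genes were taken as the gene symbols of the count tables that consist of Rpl or Rps, a number and, in some, the ending a, x, l or al. The rule found 78 of the 23284 symbols, 31 for proteins of the small ribosomal subunit (Rps) and 47 for proteins of the large subunit (Rpl). The rule reads the symbols alone. RNA-seq counts came from 5 libraries of neural tubes of mouse embryos: 2 EpoR-null (EpoR -/-), 2 wild type (EpoR +/+) and 1 heterozygote (EpoR +/-). The last 3 were the littermate controls. EpoR encodes the erythropoietin receptor, and the embryos came from crosses of EpoR +/- mice. The null allele was therefore carried by every cell of an embryo and not by the neural tube alone. By their labels the embryos were E8.5, and by the study's methods E9.0. The sex of the embryos is not given in the sources used here, and no group received a treatment.

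The ribosome is the machine that translates mRNA into protein. Its small subunit decodes the mRNA, and its large subunit joins the amino acids and releases the growing chain through an exit tunnel. Each subunit is a core of ribosomal RNA covered by proteins that are made in near-equal numbers, and their mRNAs are among the most abundant of dividing cells such as those of the early neural tube. These mRNAs typically begin with a run of pyrimidines, the terminal oligopyrimidine (TOP) tract, through which the growth kinase mTOR controls their translation. Loss of single ribosomal proteins causes Diamond-Blackfan anemia in people and defects of neural tube, skeleton or pigment in mice. Many ribosomal protein genes have processed pseudogenes, which makes their reads hard to place.

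The start regions of the members are shown first, because the pyrimidine run was looked for in members of high and of low fold change alike. RefSeq promoter sequences (GRCm38.p6) were given for 58 of the 78 members. A run of at least 8 bases that are all C or T lay within 50 bases of a RefSeq start, on the sense strand, in 51 of these 58 members (87.9%). The same run was found in 39.3% of the 27025 genes of the table and in 36.7% of the 9062 of them that were tested for a change in expression. The run was present in 18 of 22 small subunit genes, in 33 of 36 large subunit genes and in 9 of the 11 members with a promoter that passed the test described further on. The windows below read 5′ to 3′ on the strand of the gene, with the longest run in capitals. Rpl37a (chr1:72711275-72711304, plus strand), Rps15 (chr10:80292447-80292476, plus), Rpl38 (chr11:114668568-114668597, plus) and Rpl35a (chr16:33056469-33056498, plus) had high fold changes. Rpl4 (chr9:64173406-64173435, plus), Rpl5 (chr5:107900498-107900527, plus) and Rpl7a (chr2:26910789-26910818, plus) had low ones. Rpl36a (chrX:134585673-134585702, plus) and Rpl36al (chr12:69184020-69184049, minus) are a pair of paralogs.
Rpl37a: gcattgcgTCCCTTCCTCTTCggacttggg
Rps15: cagcccgtaCTTCCTTTTCCgagtaaccgc
Rpl38: ggaagcctcgTTCTTTCCCCgttctcttcg
Rpl35a: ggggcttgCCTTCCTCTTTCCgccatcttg
Rpl4: agcgtggCCTTCTCCTCTCCCCgtcatggt
Rpl5: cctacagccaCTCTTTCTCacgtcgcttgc
Rpl7a: acaaTTCCCTCTTCTTTCTTTCTCCagcag
Rpl36a: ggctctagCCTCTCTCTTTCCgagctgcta
Rpl36al: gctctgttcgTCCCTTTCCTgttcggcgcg
The run was thus present at both ends of the range of fold changes, with 10 and 21 bases in Rpl38 and Rpl7a. A match is a description of the letters and not a measured TOP tract.

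NRF1, a transcription factor that binds near the starts of many housekeeping genes, has a palindromic site, searched here as GCGCATGCGC. Within 250 bases before to 50 bases after a start, on either strand, 2 of the 58 members (3.45%) held it. The share was 1.07% over all promoters of the table and 2.42% over those of tested genes. The members were Rpl37a (chr1:72711257-72711286, plus) and Rpl10a (chr17:28328551-28328580, plus), and the palindrome is in capitals in the windows printed here.
Rpl37a: gtctaaaaccGCGCATGCGCattgcgtccc
Rpl10a: ctctatttgaGCGCATGCGCaaagcgctct
CCGGAAG, a site of ETS factors, was found in 39.7% of members, 9.93% of all promoters and 19.6% of those of tested genes. AAGATGGC, a site of YY1, was found in 8.62%, 3.19% and 5.22% of the same 3 sets. Both strings were searched on both strands.

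Reads counted on genes ranged from 19316126 to 41169218 per library, so that 3 reads corresponded to 0.0729 to 0.155 CPM, the reads of a gene scaled to a common library size with TMM factors. These limits cover counting error only. Epor itself had 57 and 68 reads in wild type 1 and 2, 11 reads in the library labelled heterozygote and 7 and 19 reads in EpoR-null 1 and 2. In CPM these were 2.36 and 1.62, 0.476, and 0.354 and 0.669. The library labelled heterozygote thus lay between the EpoR-null libraries and not between them and wild type, and results are also given without it. Where these reads lie within the gene was not analysed here. All 7 neural progenitor markers, among them Sox1, Sox2 and Pax6, were detected in every library. Their summed level was 1600 to 1822 CPM in the controls, 1591 in EpoR-null 1 and 1382 in EpoR-null 2. Nes had the largest part of this sum, with 635 and 579 CPM in wild type 1 and 2 and 738 in the heterozygote. In EpoR-null 1 and 2 it had 777 and 368 CPM. Each of the other progenitor markers was higher in EpoR-null 2 than in EpoR-null 1. Summed markers of other cells differed between libraries of the same genotype. Neuron markers reached 212.5 to 354.8 CPM in the controls, 829.7 in EpoR-null 1 and 153 in EpoR-null 2. Erythroid markers reached 44.18 CPM in the library labelled heterozygote, the lowest control, and 1092 in the highest control. They reached 1693 in EpoR-null 1 and 965.6 in EpoR-null 2. Endothelial markers reached 10.8 CPM in the library labelled heterozygote and 234.7 in the highest control. In EpoR-null 1 and 2 they reached 197.5 and 104.2. Paraxial mesoderm and neural crest markers were also lowest in the library labelled heterozygote. Whether its low Epor reads go with its low levels of these markers was not tested.

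Ribosomal protein mRNAs took up a larger part of the EpoR-null libraries than of any control library. Members received 5.58%, 5.92% and 5.82% of gene reads in wild type 1, wild type 2 and the heterozygote, against 6.61% in EpoR-null 1 and 8.33% in EpoR-null 2. The groups did not overlap, and the library EpoR-null 2 stood well above EpoR-null 1. The difference of the means was 1.70 percentage points, with a pooled SD within groups of 0.717. It was 0.838 points without EpoR-null 2 and 2.56 points without EpoR-null 1. Adding the ribosomal genes whose symbols fall outside the rule gave 6.36% to 6.81% in the controls, 7.51% in EpoR-null 1 and 9.61% in EpoR-null 2. No share was tested for significance, since 2 libraries against 3 cannot give an exact permutation p below 0.1.

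Both subunits took part. Small subunit genes received 2.39%, 2.51% and 2.50% of gene reads in the controls (wild type 1, wild type 2, heterozygote) and 2.90% and 3.58% in EpoR-null 1 and 2. Large subunit genes received 3.20%, 3.41% and 3.32% in the controls and 3.72% and 4.75% in the EpoR-null libraries. The reads of large over small subunit genes stood at a ratio of 1.34, 1.36 and 1.33 in the controls and of 1.28 and 1.33 in EpoR-null 1 and 2. The ratio of EpoR-null 2 was level with that of the heterozygote, the lowest of the controls (1.326 in both), and that of EpoR-null 1 lay below all controls. In these bulk libraries, a change in the mix of cell types and a change in the mRNA per cell cannot be told apart.

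Gene by gene, the shift was shared by nearly all members but differed in size between both EpoR-null libraries. Relative to the mean log2 CPM of the controls (0.5 added to the CPM), the 73 members that passed the filter on low counts had a median of 0.19 in EpoR-null 1 and 0.68 in EpoR-null 2. Over all 12703 tested genes the medians were 0.01 and 0.02. In EpoR-null 1, 67 of the 73 values were above 0, with a range of -0.46 to 0.49. In EpoR-null 2 all 73 were above 0, with a range of 0.35 to 1.04. The median of the small subunit genes was 0.22 in EpoR-null 1 and 0.68 in EpoR-null 2, and that of the large subunit genes 0.18 and 0.68. EpoR-null 2 exceeded EpoR-null 1 in 73 of 73 members, by 0.09 to 1.08 on the log2 scale with a median of 0.47. The controls lay close together: the heterozygote minus the mean of wild type had a median of 0.04, and wild type 2 minus wild type 1 a median of 0.07. The SD of a member's CPM, as a percent of its mean, had a median of 4.87% over the 3 controls and of 23.1% over the 2 EpoR-null libraries.

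**Figure D1:**
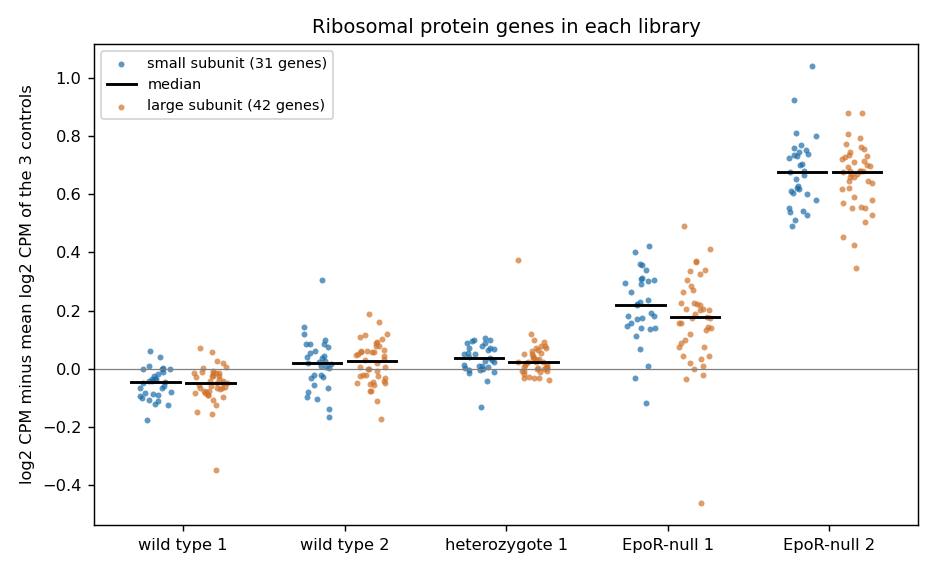
Log2 CPM of each tested ribosomal protein gene minus the gene's mean log2 CPM in the 3 controls (vertical axis), by library (horizontal axis); points are genes, blue for 31 small and orange for 42 large subunit genes, and black lines are medians. The medians of both subunits lie at 0.22 and 0.18 in EpoR-null 1 and at 0.68 in EpoR-null 2, while those of the controls lie between -0.05 and 0.04.

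The genotypes were compared with the exact test of edgeR, EpoR-null against the 3 controls. Genes that exceeded 1 CPM in 2 or more libraries entered the test, and a gene passed at a false discovery rate (FDR) below 0.05 over all 12703 of them. The log2 fold change was above 0 in all 73 tested members, against 56.2% of all tested genes. It ranged from 0.17 to 0.73 with a median of 0.46, a median fold of 1.37, against a median of 0.06 over all tested genes. Of the members, 14 (19.2%) passed the test as higher in EpoR-null neural tubes, where 1.81% of all tested genes did. None passed as lower, where 5.49% of all tested genes did. At an unadjusted p below 0.05, 57 members (78.1%) were higher, against 7.88% of all tested genes. With a p below 0.001 in addition to the FDR, 6 members passed, against 0.929%. Both EpoR-null libraries lay above all 3 controls in 59 members (80.8%), against 21.2% of all tested genes, and below all 3 in none, against 22.1%. The 14 members that rose were 7 small subunit genes, among them Rps29, Rps15, Rps28, Rps24 and Rps15a, and 7 large subunit genes, among them Rpl37a, Rpl38, Rpl35a, Rpl36a and Rpl39.

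The call of these 14 genes depended on the libraries and on the test. The exact test called 0 members without wild type 1 (0.0318% of all tested genes were called higher), 0 without wild type 2 (0.111%) and 0 without the heterozygote (0.111%), where the median log2 fold change of the members was 0.47. It called 7 members without EpoR-null 2 (4.95%) and 71 of 73 without EpoR-null 1 (14.3%). In these last fits the EpoR-null arm was a single library, assumed to vary like the controls, so that their calls describe that library. The quasi-likelihood F-test of edgeR called 0 members and 0% of all tested genes, with a lowest member FDR of 0.0733 and 52 members higher at an unadjusted p below 0.05 (10.2% of all tested genes). DESeq2 called 25 members, where it called 2.57% of the genes it tested higher. The 7 genes called with EpoR-null 1 as the only EpoR-null library, among them Rpl35a, Rpl36a, Rps24 and Rpl39, were all among the 14.

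**Figure D2:**
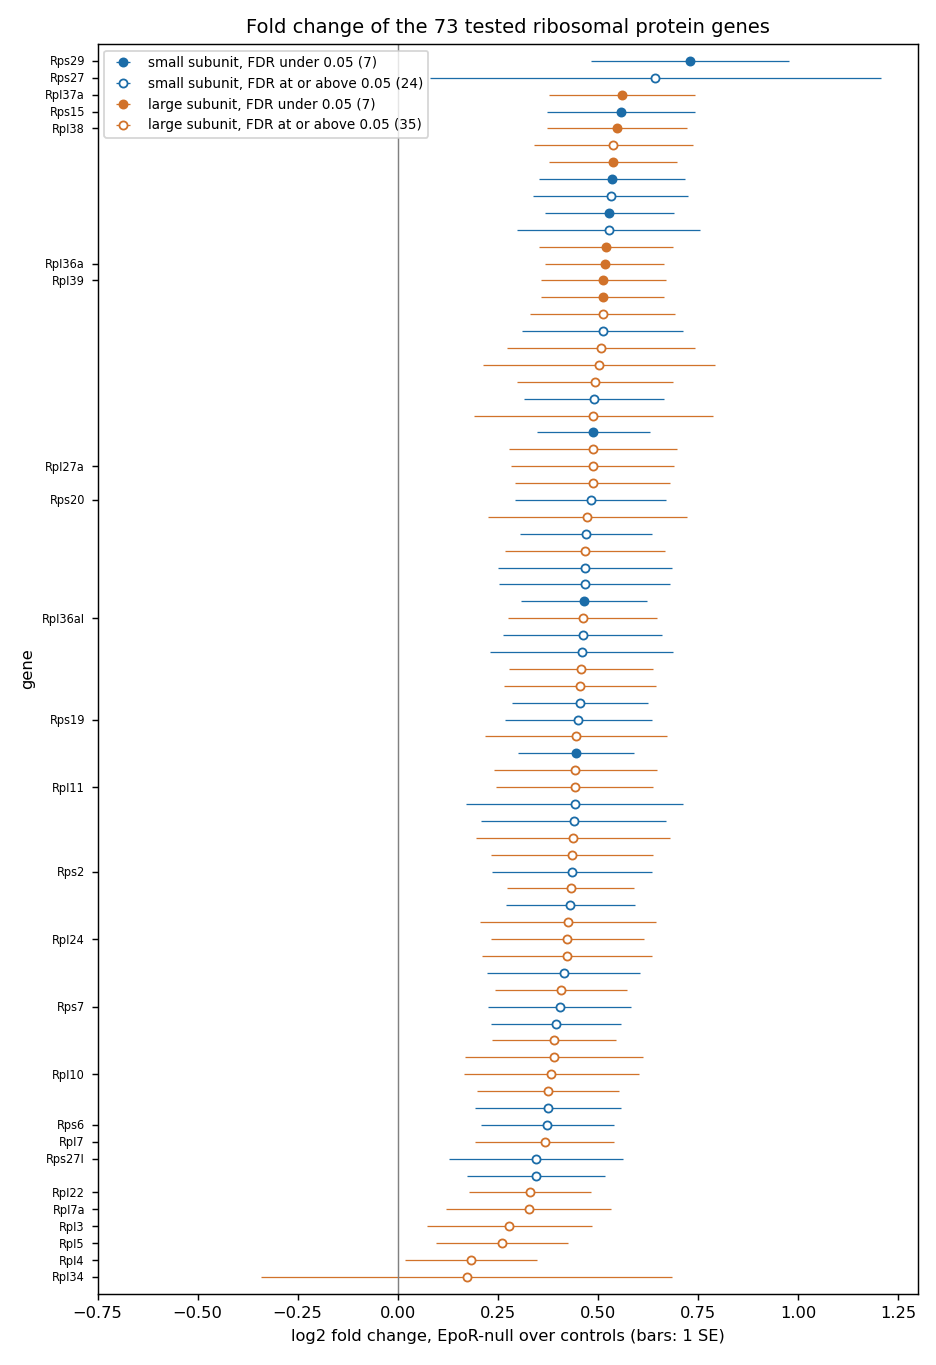
Log2 fold change, EpoR-null over controls (horizontal axis), of the 73 tested ribosomal protein genes, ranked (vertical axis, with names for the genes that the fixed rule for named genes picked); bars are 1 standard error, and filled points mark an FDR below 0.05 in the exact test of edgeR (7 small subunit genes in blue, 7 large subunit genes in orange). All points lie above 0, between 0.17 for Rpl34 and 0.73 for Rps29.

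Rps29, a zinc-binding protein of the head of the small subunit, had the highest fold change. Its CPM was 315 and 373 in wild type 1 and 2, 328 in the heterozygote, and 427 and 695 in EpoR-null 1 and 2. Both EpoR-null libraries lay above every control, and they differed from each other by more than EpoR-null 1 differed from wild type 2. The means were 339 ± 30.5 (SD, n = 3) and 561 ± 190 (SD, n = 2), or 0.73 on the log2 scale (standard error, SE, 0.25, FDR 0.0406 in the exact test of edgeR).

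Rpl37a, a zinc-binding protein of the large subunit, had a CPM of 347 and 352 in wild type, 373 in the heterozygote, and 448 and 607 in EpoR-null 1 and 2. Its log2 fold change was 0.56 (SE 0.18, FDR 0.0324, edgeR exact test). Rps15, needed for the export of small subunit precursors from the nucleus, had a CPM of 613 and 639 in wild type, 646 in the heterozygote, and 784 and 1079.7 in EpoR-null 1 and 2. Its log2 fold change was 0.56 (SE 0.19, FDR 0.0376). The groups did not overlap for either gene.

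Rpl38, whose loss in mice changes the pattern of the axial skeleton, had a CPM of 257 and 261 in wild type, 279 in the heterozygote, and 336 and 441 in EpoR-null 1 and 2. Its log2 fold change was 0.55 (SE 0.18, FDR 0.0289). Rps27 stood among the 5 highest fold changes (0.64) on few reads, 20 to 74 per library, and did not pass the test (SE 0.56, FDR 0.567). Its CPM was 0.950 and 1.52 in wild type, 0.994 in the heterozygote, and 1.01 and 2.61 in EpoR-null 1 and 2, so that the groups overlapped.

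The lowest FDR among the members belonged to genes of which both EpoR-null libraries lay closer together than for Rps29. Rpl36a had a CPM of 356 and 351 in wild type, 383 in the heterozygote, and 483 and 557 in EpoR-null 1 and 2 (log2 fold change 0.52, FDR 0.0119). Rps24, which is mutated in some Diamond-Blackfan families, had a CPM of 865 and 828 in wild type, 908 in the heterozygote, and 1160.2 and 1272 in EpoR-null 1 and 2 (log2 fold change 0.49, FDR 0.0122). Rpl35a, also mutated in Diamond-Blackfan anemia, had a CPM of 450.2 and 384 in wild type, 470.0 in the heterozygote, and 609 and 652 in EpoR-null 1 and 2 (log2 fold change 0.54, FDR 0.0158). In all 3 genes the lower EpoR-null library exceeded the highest control.

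At the other end, Rpl34, Rpl4, Rpl5, Rpl3 and Rpl7a had the lowest fold changes, and all 5 are large subunit genes. Rpl34 had few reads, 56 to 186 per library, and a log2 fold change of 0.17 (SE 0.51). Rpl4, which lines the exit tunnel, had a CPM of 2157 and 2249 in wild type, 2182 in the heterozygote, and 2195 and 2793 in EpoR-null 1 and 2. EpoR-null 1 lay within the controls, and the log2 fold change was 0.18 (SE 0.17, FDR 0.577).

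Rpl3, which lies near the peptidyl transferase center, had a CPM of 1866 and 2039 in wild type, 1888 in the heterozygote, and 1902 and 2784 in EpoR-null 1 and 2, with a log2 fold change of 0.28 (FDR 0.473). Rpl7a had a CPM of 1258 and 1357 in wild type, 1296 in the heterozygote, and 1322 and 1948 in EpoR-null 1 and 2, with a log2 fold change of 0.33 (FDR 0.384). For both genes EpoR-null 1 lay within the controls and EpoR-null 2 above them. With EpoR-null 1 as the only EpoR-null library, the log2 fold change was -0.02 for Rpl3 and -0.003 for Rpl4.

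**Figure D3:**
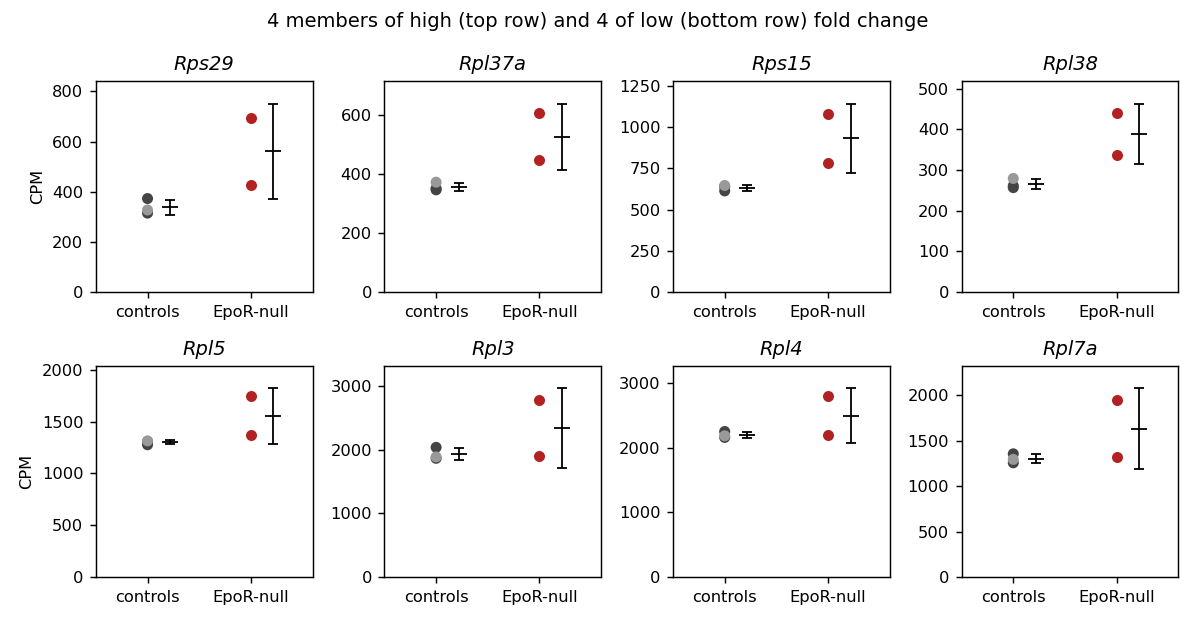
CPM (vertical axes, each from 0) of 4 ribosomal protein genes of high fold change (top row) and 4 of low fold change (bottom row) in controls and EpoR-null libraries (horizontal axis); dark points are wild type, light grey points the heterozygote, red points EpoR-null, and dashes with bars the mean ± SD. Both red points lie above all controls in the top row and for Rpl5, whereas the lower red point lies within the controls for Rpl3, Rpl4 and Rpl7a.

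Rpl5 and Rpl11 form a particle with 5S ribosomal RNA that binds Mdm2 and so links ribosome assembly to p53. Rpl5 had a CPM of 1276 and 1305 in wild type, 1314 in the heterozygote, and 1366 and 1743 in EpoR-null 1 and 2. Rpl11 had 873 and 912 in wild type, 911 in the heterozygote, and 1002 and 1439 in EpoR-null 1 and 2. Both EpoR-null libraries lay above the controls for both genes, and neither passed the test (log2 fold change 0.26 with FDR 0.387 for Rpl5, and 0.44 with FDR 0.163 for Rpl11).

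Rps6, the small subunit protein that is phosphorylated by the kinases downstream of mTOR, had a CPM of 1436 and 1546 in wild type, 1534 in the heterozygote, and 1718 and 2184 in EpoR-null 1 and 2 (log2 fold change 0.37, FDR 0.162). Rps2, part of the mRNA entry site, had the highest CPM of all members, with 2425 and 2589.6 in wild type, 2475 in the heterozygote, and 2762 and 3993 in EpoR-null 1 and 2 (log2 fold change 0.44, FDR 0.179). The EpoR-null libraries lay above the controls for both, without a call.

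Among genes whose mutation in mice affects pigment, skeleton or neural tube, Rpl38 was the 1 of 6 that passed the test. The other 5 were Rps7, Rps19, Rps20, Rpl24 and Rpl27a, with log2 fold changes of 0.41 for Rps7 to 0.49 for Rpl27a. The share that rose was 19.2% over all tested members and 1.81% over all tested genes. Rps19, the gene most often mutated in Diamond-Blackfan anemia, had a CPM of 546 and 563 in wild type, 607 in the heterozygote, and 665 and 898 in EpoR-null 1 and 2 (log2 fold change 0.45, FDR 0.116). All 6 genes had both EpoR-null libraries above all controls, as did 80.8% of all tested members and 21.2% of all tested genes.

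Members were also grouped by place in the ribosome and by disease. Of 14 tested proteins of the head of the small subunit, 4 rose, among them Rps29 and Rps15, and 10 did not pass the test, with a median log2 fold change of 0.47. For comparison, 19.2% of all tested members and 1.81% of all tested genes rose. Of 8 tested proteins around the exit tunnel, 3 rose (Rpl35, Rpl39 and Rpl23a) and 5 did not pass, with a median of 0.44. Of 19 tested genes of Diamond-Blackfan anemia, 7 rose and 12 did not pass, with a median of 0.46. The medians of these 3 groups lay within 0.02 of the median of all 73 members (0.46). That of Rpl5 and Rpl11 together was lower, at 0.35, and neither of them passed the test. By subunit, 7 of 31 small and 7 of 42 large subunit genes rose, with medians of 0.46 and 0.45. This difference of subunits was not tested.

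Levels were compared between genes only per kilobase of annotated transcript, and they cover the uniquely placed reads alone. The highest control levels per kilobase were those of Rps2 (2502 CPM per kilobase), Rps12 (2243), Rpl41 (1763), Rps6 (1714) and Rpl32 (1567). Rps12, Rpl41 and Rpl32 were added to this list after their values were seen. Leaving aside Rps27 and Rpl34, with their few reads, the 71 other tested members had a control mean of 106 to 2497 CPM, with a median of 750.1.

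The low end was made up of 7 genes. Rpl10l, Rpl39l and Rpl3l, which are paralogs known from testis or muscle, and Rpl26, a core protein of the large subunit, had fewer than 10 reads in every library. Rpl26 had 1 read in wild type 1 and 0 in the other 4 libraries. Rpl30 had 15 to 41 reads per library and was not tested either, so that 5 large subunit genes had no test. Rpl34 and Rps27 were tested on the few reads given above. Among the 65-base windows of the annotated transcript, the share found in no transcript of another locus was 1.42% for Rps27, 35.9% for Rpl26, 54.8% for Rpl34 and 56.7% for Rpl30. Rpl9 had a share of 7.12% and a control mean of 778 CPM, so this share did not separate the genes with few reads from the others. Values of these 4 genes are uncertain, as are those of other members with near-identical copies, and their counts say nothing about the amount of their proteins.

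Paralog pairs were compared as the log2 ratio of paralog to main gene, since some paralogs can take the place of the main protein in the ribosome. Of 7 pairs, 4 had at least 10 reads for both genes in every library. Rpl22l1, the paralog of the RNA-binding protein Rpl22, took 24.4%, 25.2% and 23.4% of the reads of the pair in wild type 1, wild type 2 and the heterozygote, and 23.7% and 26.7% in EpoR-null 1 and 2. The groups overlapped, and the log2 ratio differed by 0.06 (exact permutation test, two-sided, p = 0.6, adjusted over 4 pairs 0.7). With 2 libraries against 3, the smallest p that this test can give is 0.1.

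Rpl36al took 32.2%, 32.5% and 30.5% in the controls and 28.7% and 32.7% in the EpoR-null libraries, again with overlap (difference -0.07 on the log2 scale, exact permutation p = 0.7, adjusted 0.7). Rpl7l1, a nucleolar relative of Rpl7, took 12.7%, 13.5% and 12.7% in the controls and 10.6% and 11.7% in EpoR-null 1 and 2. The groups did not overlap in this pair, and the log2 ratio differed by -0.25 (exact permutation p = 0.1, adjusted 0.4). The annotated transcripts are of unequal length, 2606 bases for Rpl7l1 and 1163 for Rpl7, and with the length and GC offsets described further on both genes had a log2 fold change of 0.09. The CPM of Rpl7l1 was 209 and 223 in wild type, 216 in the heterozygote, and 192 and 281 in EpoR-null 1 and 2, with overlap, whereas that of Rpl7 was 1441 and 1424.5 in wild type, 1478 in the heterozygote, and 1613 and 2122 in EpoR-null 1 and 2, without overlap. In the pair of Rps27l and Rps27, Rps27l took 98.4% to 99.1% of reads in every library, and Rps27 had few reads (difference -0.21, exact permutation p = 0.5, adjusted 0.7).

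**Figure D4:**
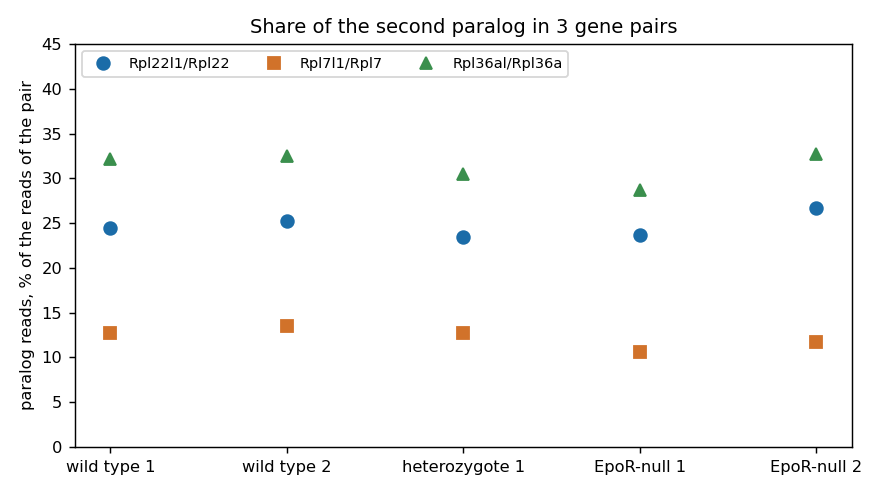
Reads of the second paralog as a percent of the reads of both genes of a pair (vertical axis), by library (horizontal axis); circles are Rpl22l1 with Rpl22, squares Rpl7l1 with Rpl7 and triangles Rpl36al with Rpl36a. Both EpoR-null squares (10.6% and 11.7%) lie below the control squares (12.7% to 13.5%), and the other pairs overlap between groups.

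The fold changes of the members stood in a relation to transcript length that was found over all genes. Members have short annotated transcripts, with a median of 774 bases against 2946 bases over all tested genes. Across genes, which are not independent replicates and share the same 5 libraries, Spearman's rho of log2 fold change with length was -0.63 over 12585 tested genes with a length and -0.41 over the 73 members. Genes of 500 to 750 bases had a median log2 fold change of 0.49 over 265 genes and of 0.46 over the 22 members among them. Genes of 750 to 1000 bases had medians of 0.45 over 408 genes and 0.44 over 22 members. Among the 141 genes below 500 bases the median was 0.44, and 0.52 over 11 members. From 500 to 1000 bases, members and all genes of like length, the members included, thus had like medians. Below 500 bases the median of the members was the higher. From 1000 to 1500 bases the medians were 0.36 over 1180 genes and 0.47 over 11 members, and from 1500 to 2500 bases 0.20 over 2963 genes and 0.33 over 5 members. Beyond 2500 bases a single member stood in each of the remaining ranges. Genes of 2500 to 5000 bases had a median of -0.03 and the member Rps20 0.48. Those of 5000 bases or more had a median of -0.37 and the member Rps15a 0.45. Per kilobase of annotated transcript, the control levels of Rps20 and Rps15a were 205 and 115 CPM. Among the tested members only Rps27 and Rpl34, with few reads, had lower levels. Whether these annotated lengths are those of the transcripts counted was not tested. Without both genes, Spearman's rho over the other 71 members was -0.44. The trend was present in each EpoR-null library: genes of 500 to 750 bases had a median of 0.31 in EpoR-null 1 and 0.60 in EpoR-null 2, and genes of 5000 bases or more had medians of -0.26 and -0.52.

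When the trend of each library on transcript length and GC content was removed by offsets, the shift of the members was no longer seen. The median log2 fold change of the 73 members fell from 0.46 to 0.03, against 0.01 over all genes, and 44 of 73 were above 0. The median was 0.04 for small and 0.02 for large subunit genes. The likelihood-ratio test of edgeR called 14 members without offsets (1.85% of all tested genes) and 1 member with offsets (0.0874%), as higher, and none as lower (1.38%). This member was Rps15a, with a log2 fold change of 0.73 and an FDR of 0.0200. Its annotated transcript of 5130 bases is the longest of the members, and that of Rps20, with 0.67, has 3706 bases. The offsets rest on these annotated lengths, so that the values of both genes depend on them. Rps29 had 0.23 with offsets, Rpl37a 0.15, Rpl4 -0.03 and Rpl7a -0.10. Offsets take out any change that goes with length, so a change of ribosomal protein mRNAs and a change of short transcripts in general cannot be told apart in these data.

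**Figure D5:**
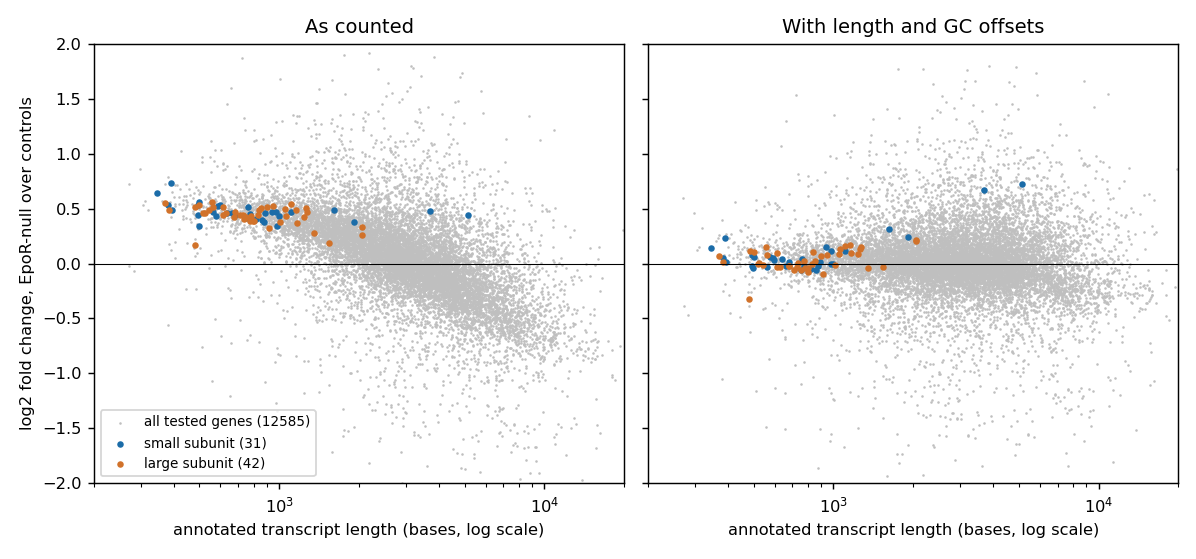
Log2 fold change, EpoR-null over controls (vertical axis), against annotated transcript length (horizontal axis, log scale), as counted (left) and with length and GC offsets (right); grey points are all 12585 tested genes with a length, blue points small and orange points large subunit genes, and points beyond the axes are not shown. Members lie on the left within the cloud of short transcripts, with a median of 0.46 as counted and 0.03 with offsets.

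Ribosomal genes whose symbols fall outside the rule had the same median as the members. Over the 9 tested, the median log2 fold change was 0.46. The stalk proteins, which recruit translation factors, had 0.37 for Rplp0, 0.50 for Rplp1 and 0.47 for Rplp2. Rpsa had 0.46, Fau 0.58, Gnb2l1 (Rack1) 0.41, Rpl22l1 0.41 and Rpl7l1 0.13. None of these 8 passed the exact test of edgeR. Of the 8, Rpsa, Fau and Rpl22l1 had both EpoR-null libraries above all controls.

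Nuclear genes of the mitochondrial ribosome, whose products translate the mRNAs of mitochondria, were also shifted. All 76 had a log2 fold change above 0 (56.2% of all tested genes) with a median of 0.38, 4 rose (1.81% of all tested genes) and 72 did not pass the test. The 4 were Mrpl23 (0.60, FDR 0.0143), Mrps21 (0.54, FDR 0.0200), Mrps18c (0.53, FDR 0.0391) and Mrpl13 (0.41, FDR 0.0304). Their transcripts are short as well, with a median of 1224.5 bases over the 76 genes, and their median with offsets was 0.06, where none of the 4 kept its call (FDR 0.9999 for each). Other mRNAs with a TOP tract, such as those of elongation factors, had a median of 0.195. Of 19 tested, 2 rose, Eif3f (0.50, FDR 0.0357) and Tpt1 (0.48, FDR 0.0151), and with offsets they had 0.44 (FDR 0.301) and 0.11 (FDR 0.9999). Tpt1, which encodes a translationally controlled growth protein, had a CPM of 1499 and 1526 in wild type, 1544 in the heterozygote, and 1986 and 2254 in EpoR-null 1 and 2.

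Genes that build ribosomes were a further list. Of 48 tested genes of ribosome biogenesis, none rose, 2 fell and 46 did not pass the test, where 5.49% of all tested genes fell. The median was 0.03, from medians of -0.27 in EpoR-null 1 and 0.28 in EpoR-null 2. Polr1a, the largest subunit of RNA polymerase I, had a CPM of 169 and 187 in wild type, 171 in the heterozygote, and 91.8 and 134 in EpoR-null 1 and 2 (log2 fold change -0.64, FDR 0.0355). Tsr1, which takes part in small subunit assembly, had a CPM of 94.3 and 98.1 in wild type, 92.0 in the heterozygote, and 56.3 and 65.7 in EpoR-null 1 and 2 (log2 fold change -0.63, FDR 0.000784). With length and GC offsets neither gene passed the likelihood-ratio test of edgeR, with -0.28 (FDR 0.9999) for Polr1a and -0.56 (FDR 0.0854) for Tsr1.

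Of 21 tested regulators of TOP mRNAs and growth, none rose and 4 fell, where 5.49% of all tested genes fell, with a median of -0.10. Mtor, the growth kinase, had a CPM of 121 and 126 in wild type, 125 in the heterozygote, and 89.7 and 81.8 in EpoR-null 1 and 2 (log2 fold change -0.53, FDR 0.00263). Eif4ebp2, a repressor of cap-dependent translation, had -0.69 (FDR 5.29e-05), Tsc1, an inhibitor of mTOR signaling, -0.63 (FDR 0.0131), and Larp4, which binds poly(A) tails, -0.54 (FDR 0.00467). The genes that fell thus include activators and repressors. Annotated transcripts of this list are long, with a median of 4991 bases. With offsets none of the 4 passed the likelihood-ratio test of edgeR, with -0.26 for Mtor (FDR 0.615), -0.43 for Eif4ebp2 (FDR 0.417), -0.36 for Tsc1 (FDR 0.372) and -0.07 for Larp4 (FDR 0.9999).

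Some other measured features of the libraries moved with EpoR-null 2, the library with the highest member levels. Alignments counted as not unique came to 13.5% to 15.2% of gene reads in the controls, 14.9% in EpoR-null 1 and 16.0% in EpoR-null 2. Uniquely aligned reads outside genes came to 9.13% to 11.03% in the controls, 10.2% in EpoR-null 1 and 8.12% in EpoR-null 2. Summed neuron markers were lowest in EpoR-null 2 and highest in EpoR-null 1, as given above. Of the 7 neural progenitor genes Msi1 alone passed the test, as lower (log2 fold change -0.51, FDR 0.00712). It was low in both EpoR-null libraries, with 174 CPM in EpoR-null 1 and 181 in EpoR-null 2. With length and GC offsets Msi1 still passed the likelihood-ratio test of edgeR as lower (-0.63, FDR 0.00834). The part of these features in the levels of ribosomal protein mRNAs was not tested.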

How the data were processed

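PolyA-selected RNA of dissected neural tubes was sequenced, and the authors deposited raw read counts per gene symbol for each of 5 libraries. The submitters' processing notes name FastQC, Trimmomatic 0.32, TopHat2 2.1.0, HTSeq 0.6.1, edgeR and mm9. The study's methods name hg19 and another TopHat version for RNA-seq, and read lengths of 65 and 100 bases. Strand and counting options are not given in the sources used here. Reads that align to several places are left out of such counts, which lowers genes with near-identical copies. Summary lines of the counter were kept out of library sizes.

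EpoR-null and control counts were compared under R 4.3.3 by edgeR 4.0.16 (TMM and exactTest, as in the study's methods, with tagwise dispersions) and Benjamini-Hochberg adjustment over the 12703 genes that exceeded 1 CPM in 2 or more libraries. CPM are TMM-scaled, and standard errors come from the negative binomial information. Alternatives were DESeq2 1.42.0, the quasi-likelihood F-test and likelihood-ratio test of edgeR, other scalings and filters, each library left out, and loess offsets (span 0.5) on transcript length and GC content from GENCODE M21, matched by symbol (97.9%). Each fit was tested on simulated data, with changes larger than those of the members. Paralog ratios had 0.5 reads added. Labels give separate libraries. The methods describe dissected and genotyped embryos and do not say whether a library held a single embryo or a pool. Members and gene lists were chosen with earlier results of these data known. Genes were named by a fixed rule: the 5 highest and 5 lowest fold changes, the 5 highest CPM, paralog pairs, a fixed list of disease and signaling genes, and up to 4 called genes of each list. Other called members and the called genes of the mitochondrial ribosome were named after their values were seen, and some called genes are not reported here by name.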

Additional observations from a re-analysis of the deposited data

Results flagged for a closer look

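A pair of values outside the gene counts was higher in EpoR-null 2 than in every control. Alignments that the counter set aside as not unique came to 15.96% of gene reads in EpoR-null 2, against at most 15.19% in the controls and 14.86% in EpoR-null 1. Reads that fell in more than 1 gene came to 2.305% of uniquely aligned reads in EpoR-null 2, against at most 1.981% in the controls and 1.971% in EpoR-null 1. Neither difference was tested.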

How the results depend on the processing

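The number of members called higher, 14 in the exact test, was 0 with the quasi-likelihood F-test, also with the heterozygote as its own group, 0 with a common dispersion, 1 with a fold above 1.5 in addition, 6 with p below 0.001 in addition or without a filter on low counts, 25 with DESeq2 and 33 with upper quartile factors. Leaving out each library in turn gave 0 to 71 called members. The medians then ranged from 0.185 to 0.677 over all members, 0.216 to 0.677 over small and 0.173 to 0.676 over large subunit genes, and the difference in share from 0.838 to 2.561 percentage points. Over these libraries left out, log2 fold changes of named genes that changed sign ranged from -0.024 to 0.528 for Rpl3, -0.563 to 0.649 for Rpl34, -0.003 to 0.347 for Rpl4, -0.175 to 0.379 for Rpl7l1, -0.077 to 0.708 for Rplp0, -0.031 to 0.887 for Rplp1 and -0.221 to 1.145 for Rps27, and log2 ratio differences from -0.05 to 0.179 for Rpl22l1/Rpl22, -0.206 to 0.063 for Rpl36al/Rpl36a and -0.571 to 0.159 for Rps27l/Rps27. All sign changes of these came without EpoR-null 2, other than that of Rpl36al over Rpl36a, without EpoR-null 1, and one of Rpl34, without wild type 1. Of all 73 members, 66 were above 0 without EpoR-null 2. No member was called lower under any setting run, and the other scalings and filters left the count within 1.5 times of 14.

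With length and GC offsets, the likelihood-ratio test called 1 member and the quasi-likelihood F-test 0. The medians were 0.026 over all members, 0.037 over small and 0.016 over large subunit genes. Log2 fold changes of named genes turned to -0.099 for Rpl7a, -0.039 for Rpl3, -0.034 for Rpl4, -0.326 for Rpl34, -0.002 for Rps2, -0.019 for Rps6, -0.04 for Rpl10, -0.038 for Rps27l, -0.005 for Rpl11, -0.023 for Rps19, -0.047 for Rps7, -0.02 for Rpl24 and -0.021 for Rplp1. Offsets from the longest transcript, added after the data were seen, gave 1 call, medians of 0.055 over all members, 0.051 over small and 0.058 over large subunit genes, and -0.112 for Rpl7a, -0.018 for Rpl3, -0.124 for Rpl4, -0.304 for Rpl34, -0.032 for Rps2, -0.074 for Rps6, -0.001 for Rpl10, -0.016 for Rpl7l1, -0.031 for Rps27l, -0.034 for Rpl11, -0.019 for Rps7, -0.057 for Rpl24, -0.039 for Rplp0, -0.046 for Rplp1 and -0.021 for Rplp2.

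Wild type and EpoR-null share replicate numbers 1 and 2, but the labels do not say what they mark, and the numbers are taken as names only. The difference of replicate 2 minus replicate 1 correlated between genotypes with r = 0.468 over 12703 genes and 0.836 over the 73 members. With a replicate block, the quasi-likelihood F-test called 0 members and 0.897% of all tested genes as higher. The replicate block with offsets called 0, with medians of -0.008 over all members, 0.003 over small and -0.019 over large subunit genes, and gave -0.048 for Rps27, -0.143 for Rpl7a, -0.092 for Rpl3, -0.071 for Rpl4, -0.454 for Rpl34, -0.028 for Rps2, -0.044 for Rps6, -0.095 for Rpl10, -0.026 for Rpl36al, -0.084 for Rps27l, -0.037 for Rpl11, -0.023 for Rps19, -0.067 for Rps7, -0.055 for Rpl24, -0.061 for Rplp0, -0.103 for Rplp1 and -0.033 for Rplp2.

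The cause of these changes was not tested. With 2 EpoR-null libraries, 1 of them far above the other, the size of the shift stays uncertain. The ranges over libraries left out do not bound it, and the medians with offsets lay below them.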
